A study of Mus musculus with 4 samples.

Results

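Mouse T cells that carried the TRP1high receptor were compared with T cells that carried the TRP1low receptor after both had met the K8 peptide. These are 2 of the 4 samples of the series, in which cells with either T cell receptor were stimulated for 48 h by B cells loaded with either the K8 or the M9 peptide, sorted from the co-culture by flow cytometry, and used for total RNA sequencing. Each of the 4 combinations was 1 sample. Nothing here was replicated, so the spread between cultures or mice is unknown and no p-value is given. The study concerns peptides from a tumour antigen whose binding to MHC class I was altered, and the responses of CD8 T cells to them. The comparison asks how the receptor that a T cell carries was reflected in its transcripts when the peptide was held at K8. The sources used here give no age, sex, strain or number of mice, and no sequence of either peptide. The measured value was the deposited log2 of a normalized count plus 1, and the difference was TRP1high minus TRP1low. Of 16338 rows, 154 receptor gene segments, 2321 pseudogenes and 20 rows with date-like or repeated names were set aside, and 9789 of the remaining 13843 genes had at least 100 normalized counts in 1 of the K8 samples and were ranked.

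The receptors take their names from TRP1, tyrosinase-related protein 1, an enzyme of pigment cells that T cells can recognise as a melanoma antigen; high and low, which the labels do not define, are known as background to refer to the affinity for that antigen. A CD8 T cell reads a short peptide held by MHC class I on another cell. Engagement of its receptor brings in the alpha chain of the interleukin 2 receptor, growth driven by the transcription factor MYC, glycolysis and lipid synthesis, and later granzymes, perforin and cytokines such as interferon gamma. Genes of resting cells, such as the lymph node egress receptor S1pr1 and the interleukin 7 receptor, are commonly low in activated cells.

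With K8, more ranked genes were higher in TRP1high than lower. At least 2-fold higher values were found for 902 of the 9789 ranked genes (9.21%), and at least 2-fold lower values for 528 (5.39%). The same count in the samples stimulated with M9, over 9747 genes, gave 521 higher (5.35%) and 268 lower (2.75%). The K8 pair also held more large differences: 87 genes were at least 8-fold higher and 57 at least 8-fold lower, against 35 and 15 in the M9 pair. The median log2 difference with K8 was -0.04, the middle of the genes lay between -0.37 (the lower quartile) and 0.36 (the upper quartile), and the 5th and 95th percentiles were -1.04 and 1.48. Of the 4034 genes that reached 2000 normalized counts in either sample, 289 (7.16%) were higher and 83 (2.06%) lower.

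Below, a level is a normalized count and a fold is the ratio of the normalized counts of TRP1high and TRP1low. The range in brackets after a fold is the 95% exact interval for counting error alone, taken on estimated reads rounded to whole numbers. A sample in which a gene had no reads was set to 3 reads, and such a fold is given as a lower bound. Levels with some reads but fewer than 3 were used as they stand. Folds on such levels are not on the same footing as the lower bounds. Normalized counts are not divided by transcript length, so levels are compared between samples and not between genes.

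**Figure D1:**
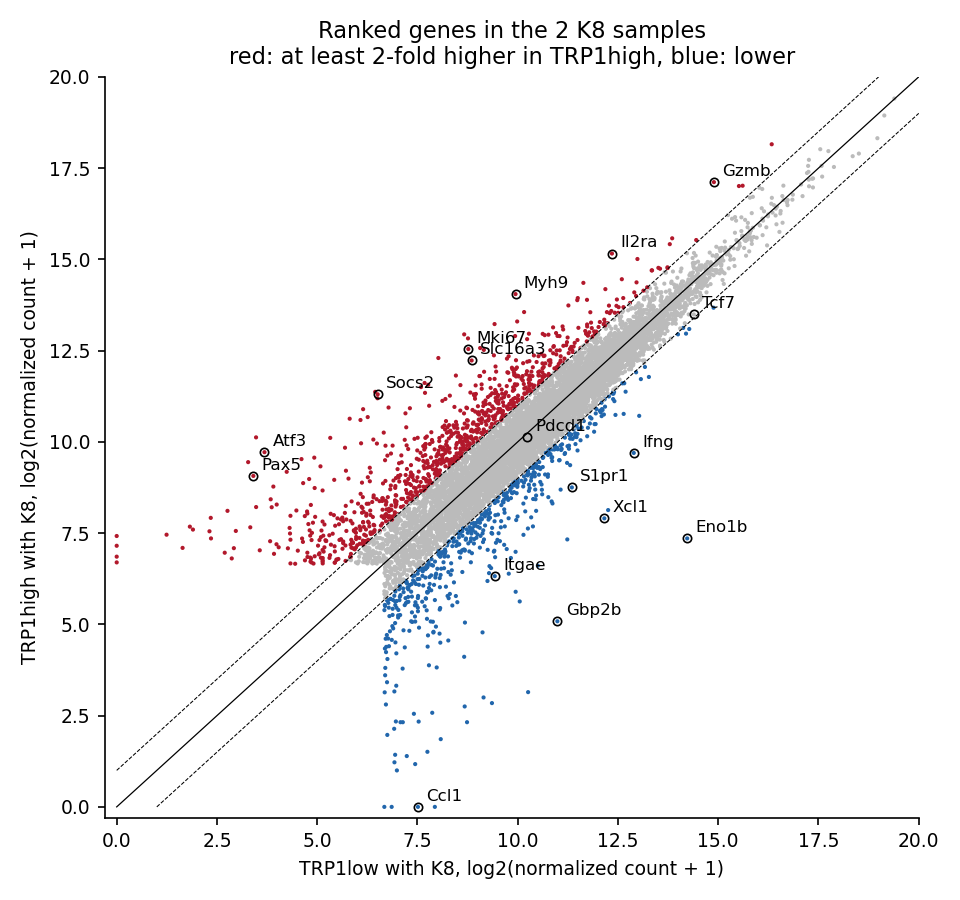
Each point is 1 of the 9789 ranked genes, placed by its log2(normalized count + 1) in TRP1low with K8 (x axis) and in TRP1high with K8 (y axis), with the line of equality solid and 2-fold lines dashed. The 902 red genes lie above the upper dashed line and include Il2ra and Gzmb. The 528 blue genes lie below the lower one and include Ifng, Xcl1 and Eno1b.

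The samples with different receptors used different Trbv segments, the variable part of the receptor beta chain; the labels name no segment. The segment Trbv13-3 took 84.8% of the Trbv reads of TRP1high with K8 (95% Wilson interval 83.9 to 85.6), and Trbv12-1 took 99.6% of those of TRP1low with K8 (99.4 to 99.7). The samples held 40.5 M (TRP1high with K8), 29.6 M (TRP1low with K8), 41.5 M and 40.4 M (TRP1high and TRP1low with M9) estimated reads, so TRP1low with K8 was the shallowest and had the most genes at 0, 1205 against 633 to 769. All 10 CD8 T cell markers were present, with summed levels of 159550.0 in TRP1high and 155793 in TRP1low with K8. The coreceptor chains Cd8a and Cd8b1 were 1.76-fold lower (1.72 to 1.79) and 1.19-fold lower (1.16 to 1.21), and Cd3e was 1.75-fold higher (1.67 to 1.83).

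Markers of other cells were not at the same level in the 2 K8 samples. The 24 B cell markers summed to 5557 in TRP1high and 4479.6 in TRP1low with K8, and to 2161 and 2165 with M9. They did not move as a block: Pax5, a transcription factor of B cells, stood at 535 normalized counts in TRP1high and 9.61 in TRP1low, Ms4a1 at 156 and 69.5 and Cd79a at 145 and 95.7, while Cd72 (129 and 683) and Spib (44.8 and 329.7) were lower in TRP1high. Of the 6 measured erythroid and platelet markers, the summed level was 3.18 in TRP1high and 633 in TRP1low with K8, and 9.46 and 3.62 with M9. Hba-a2, Hbb-bt, Ppbp and Alas2 were at 0 in TRP1high with K8 and at 243, 27.4, 23.3 and 3.98 in TRP1low. The value of Alas2 lay under the floor of 3 reads in TRP1low (4.10 normalized counts). The 14 measured myeloid and dendritic markers summed to 1496 and 668, of which Batf3, a gene that activated T cells also use, made 1406 and 312; Csf1r and S100a9 were at 0 in TRP1high with K8, and Tyrobp stood at 3.01 and 57.7. The part of these cells in the differences described here was not tested.

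Transcript length and base composition moved with the difference. Both were taken from the longest protein-coding transcript in GENCODE M21, or from the longest transcript of genes without a protein-coding one. For the 9705 ranked genes with such a transcript, the Spearman correlation of the K8 difference was 0.30 with GC content and 0.08 with transcript length. The genes are not independent. The 30 genes with transcripts over 8000 bases and over 56% GC had a median log2 difference of 1.57, and 70.0% of them were at least 2-fold higher. The 196 equally long genes with at most 44% GC had a median of -0.14, with 12.8% higher and 10.7% lower. Among the 2436 genes with transcripts of up to 2000 bases, the same share, 4.27%, was higher as lower. Genes at least 2-fold higher had a median transcript of 4459 bases and 52.9% GC, genes at least 2-fold lower one of 3480 bases and 47.8% GC, and all ranked genes one of 3121 bases and 49.8% GC. The correlation with GC content in the M9 pair was 0.28. The part of length and GC content in the differences was not tested. When each difference was centred on the 100 ranked genes most like it in both, a setting added after the data had been seen, 771 genes were higher and 503 lower. The named genes that then no longer reached 2-fold included Cd226, Cd274, Emp1, Fasn, Fosl2, H2-Ab1, Id2, Ier3, Lig1, Nlrc5, Polr1a, Sesn2, Tln1, Uhrf1 and Utp20.

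**Figure D2:**
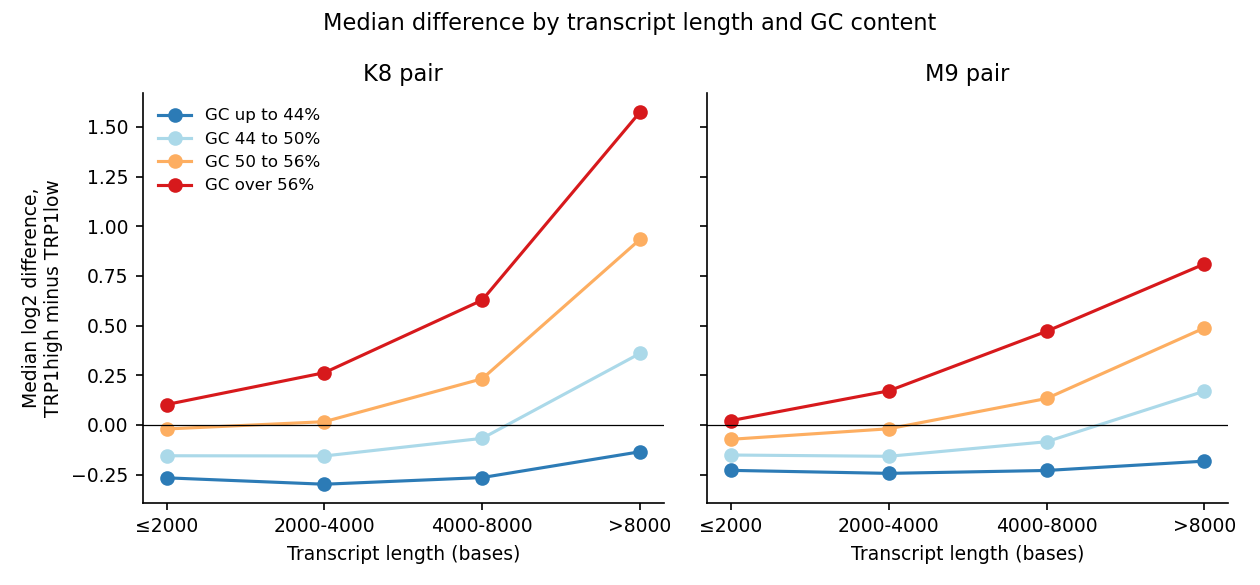
The median log2 difference (TRP1high minus TRP1low, y axis) is drawn against transcript length in 4 classes (x axis), with 1 line for each class of GC content, for the K8 pair on the left and the M9 pair on the right. With K8 the line for over 56% GC climbs to 1.57 for transcripts over 8000 bases, while the line for up to 44% GC stays below 0, and the M9 lines have the same order over a smaller range.

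The largest differences among protein-coding genes included genes at or near 0 in 1 sample. Mgarp, a mitochondrial protein gene (chromosome 3, 51388412 to 51396738, GRCm38), stood at 170.4 normalized counts in TRP1high and 0 in TRP1low, and was at least 41.5-fold higher. Fam20a (at least 34.4-fold higher), the insulin-like hormone gene Insl3 (at least 28-fold higher) and the translation inhibitor gene Eif4ebp3 (at least 25-fold higher) also had no reads in TRP1low with K8. These 4 genes were between 1.18-fold and 9.23-fold higher in TRP1high with M9, where TRP1low held from 29.2 normalized counts of Fam20a to 115 of Eif4ebp3, so TRP1low with K8 was the only sample without reads of them. Tgm2, tissue transglutaminase (chromosome 2, 158116402 to 158146436), stood at 1114 normalized counts in TRP1high and 10.1 in TRP1low and was 110.1-fold higher (56.3 to 290.0). Atf3, a stress-induced transcription factor (chromosome 1, 191170296 to 191218039), stood at 841 normalized counts in TRP1high and 11.9 in TRP1low and was 70.9-fold higher (35.8 to 149.8). Drc1 (80-fold higher (38.7 to 232)), the secreted glycoprotein stanniocalcin gene Stc2 (80.1-fold higher (20.3 to 619)), the tyrosine phosphatase Ptpn5 (59-fold higher (19.8 to 286)), Kctd15 (63.9-fold higher (13.5 to 414)), the protein kinase A inhibitor Pkib (47.6-fold higher (19.4 to 186)) and the Wnt receptor Fzd7 (39.7-fold higher (13.3 to 194)) completed the list with Setbp1 (128-fold higher (22.6 to 5072)) and the B cell genes Pax5 (55.7-fold higher (26.9 to 139.6)) and Cd22 (46.9-fold higher (15.3 to 223)). The widest of these intervals, that of Setbp1, rests on a level of 1.37 in TRP1low, under the floor of 3 reads there (4.10 normalized counts).

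Several of the genes with the largest lower values were also far lower in TRP1high with M9. Eno1b (chromosome 18, 48045335 to 48048412), an intronless copy of the enolase gene Eno1, stood at 163 normalized counts in TRP1high and 19159 in TRP1low with K8 (118-fold lower (101 to 138)) and at 93 and 33758 with M9, while Eno1 itself was 2.66-fold higher (2.63 to 2.69) with K8. Gbp2b, a guanylate binding protein gene (chromosome 3, 142594847 to 142619179), stood at 32.9 normalized counts in TRP1high and 2031 in TRP1low with K8 (61.7-fold lower (43.7 to 89.9)) and at 3.96 and 3787 with M9. Gdpd3 was 106-fold lower (49.9 to 299.6) with K8 and 318-fold lower with M9, and Cfap157 was 138-fold lower (30.4 to 6874) and 18.3-fold lower. Eno1b and Gbp2b have near-identical neighbours or copies, so their reads could have been split among them in counting. The carbonic anhydrase gene Car2 stood at 7.84 normalized counts in TRP1high and 1224 in TRP1low with K8 (156-fold lower (77.5 to 356)) and at 11.1 and 78.2 with M9 (7.05-fold lower), the same order with a lower level in TRP1low than with K8. The globin genes Hba-a2 (at least 81.3-fold lower), Hbb-bs (116-fold lower (29.1 to 891)) and Hba-a1 (90.6-fold lower (21.1 to 4817)) had at most 6.06 normalized counts in the other 3 samples, and the chemokine gene Ccl1 (at least 60.6-fold lower) at most 2.98. The phospholipase Plb1 (103-fold lower (30.3 to 440.2)), Stard13 (71.2-fold lower (31 to 188)), the integrin chain Itga2b (92-fold lower (20.2 to 625)), Nkx1-2 (126-fold lower (22.1 to 5034)), Gprasp2 (72.3-fold lower (16.4 to 511)) and Art3 (at least 33.8-fold lower) were the others. Hbb-bs and Hba-a1 stood at 1.85 and 1.33 normalized counts in TRP1high with K8, under the floor of 3 reads there (2.99 normalized counts). The intervals of Cfap157 and Nkx1-2 are about as wide as that of Hba-a1.

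Of the genes that reached 2000 normalized counts in a K8 sample, those furthest above in TRP1high were led by the neurofilament gene Nefh (30.7-fold higher (23.9 to 40.1)) and Socs2, a feedback inhibitor of cytokine signalling (28-fold higher (21.9 to 36.2)). They included Tpr, a nuclear pore protein (19.5-fold higher (17.3 to 21.9)), Tcof1, a nucleolar factor (16.9-fold higher (15.1 to 19)), the chromatin remodeller Chd7 (14-fold higher (11.9 to 16.4)), the splicing cofactor Srrm2 (10.5-fold higher (9.83 to 11.3)), Prrc2c (11.4-fold higher (10.3 to 12.7)), Map7d1 (12.7-fold higher (10.7 to 15)) and the myosins Myh9 (17.2-fold higher (16 to 18.6)) and Myo9b (15.4-fold higher (13 to 18.2)). These 8 genes have transcripts of 3351 (Map7d1) to 11502 (Prrc2c) bases. After the length and GC centring their log2 differences were 2.83 (Srrm2) to 4.20 (Tpr). They were picked for large differences and could hardly fall under 2-fold, and the part of length and GC content was not tested. Plac8, a small cysteine-rich protein gene with a transcript of 1224 bases, was 14-fold higher (12.8 to 15.3). On the other side, Tbc1d4, a regulator of glucose transporter traffic, stood at 279 normalized counts in TRP1high and 4885 in TRP1low (17.5-fold lower (15.5 to 19.8)) and at 133 and 239.9 with M9. The cathepsin gene Ctse was 15.1-fold lower (12.8 to 17.9) with K8 and 17.1-fold lower with M9. Cldnd1 (4.98-fold lower (4.72 to 5.26)), Ncoa7 (3.86-fold lower (3.53 to 4.22)) and Ift80 (3.31-fold lower (3.06 to 3.59)) differed less.

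The 29 gene lists were described by their members with at least 100 normalized counts in 1 K8 sample. A member that reached this level only in the sample where it was high had to differ, so the counts describe the members and are read beside the shares over all ranked genes, 9.21% higher and 5.39% lower with a median of -0.04. Medians given for M9 are over the same members.

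**Figure D3:**
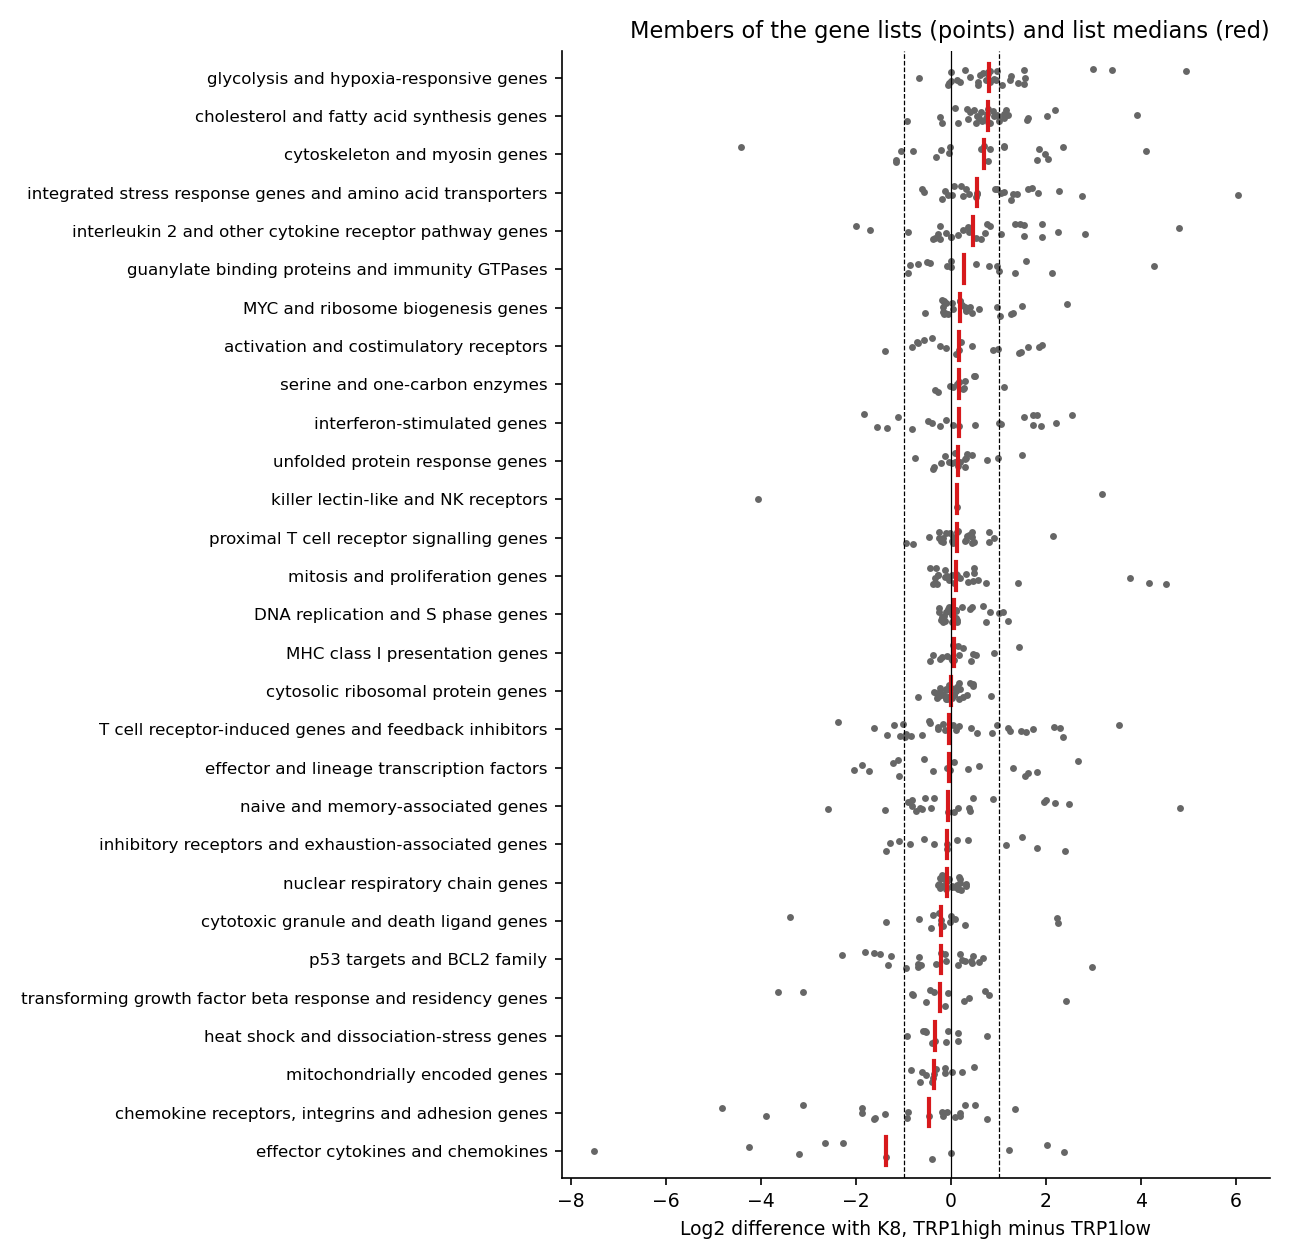
Each point is a ranked member of a gene list, placed by its log2 difference with K8 (TRP1high minus TRP1low, x axis), with the list's median as a red bar and 2-fold differences as dashed lines. The medians run from 0.79 for the glycolysis and hypoxia-responsive genes at the top to -1.37 for the effector cytokines and chemokines at the bottom.

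Several effector cytokines and chemokines stood lower in TRP1high with K8. Of 26 listed genes 22 were measured and 11 reached 100 normalized counts, of which 6 were at least 2-fold lower and 3 higher, with a median of -1.37. This median moved with the minimum level, to -2.28 at 50 normalized counts, -0.39 at 500 and -0.93 with no minimum. Ifng, interferon gamma (chromosome 10, 118441046 to 118445892), stood at 829 normalized counts in TRP1high and 7609.8 in TRP1low with K8 and at 6839 and 13898 with M9. It was 9.18-fold lower (8.54 to 9.89) with K8 and 2.03-fold lower with M9, and TRP1high with K8 was the lowest of the 4 samples. Xcl1, the chemokine that draws cross-presenting dendritic cells (chromosome 1, 164931644 to 164935527), stood at 239 normalized counts in TRP1high and 4575 in TRP1low with K8 (19.2-fold lower (16.8 to 22)) and at 2528 and 3027 with M9. The chemokines Ccl3 and Ccl4 stood at 357 normalized counts in TRP1high and 1737 in TRP1low and at 531 and 1375, 4.86-fold lower (4.32 to 5.48) and 2.59-fold lower (2.33 to 2.88). For both chemokines TRP1high with K8 was again the lowest sample, with 3893 and 5565 normalized counts of Ccl3 and 3753 and 5607 of Ccl4 with M9. Cxcl10 was 6.39-fold lower (4.61 to 9.32) with K8, and its M9 levels were 27.4 and 14.5.

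The 3 members that stood higher were Lif, Lta and Tgfb1. Lif, a cytokine of the interleukin 6 family, stood at 2491 normalized counts in TRP1high and 481 in TRP1low (5.18-fold higher (4.62 to 5.8)), and at 4565 and 4129 with M9. Lta, lymphotoxin alpha, stood at 8084 normalized counts in TRP1high and 1986 in TRP1low (4.07-fold higher (3.85 to 4.31)), and at 5161 and 9759 with M9, where the order of the receptors was the opposite. Tgfb1, transforming growth factor beta, was 2.33-fold higher (2.21 to 2.45) with K8 and 1.63-fold higher with M9. Tnf stood closer, at 396 normalized counts in TRP1high and 521 in TRP1low (1.31-fold lower (1.14 to 1.52)). Il2, interleukin 2, lay under 100 normalized counts in both K8 samples, at 5.99 and 64.3 (10.7-fold lower (4.58 to 30.7)), and at 156 and 96.5 with M9.

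The granzymes did not move together. Of 15 cytotoxic granule and death ligand genes that reached the level, 2 stood at least 2-fold higher and 2 lower, with a median of -0.21. Gzmb, granzyme B, a protease delivered into target cells (chromosome 14, 56258838 to 56262260), stood at 142017 normalized counts in TRP1high and 30410.0 in TRP1low with K8 (4.67-fold higher (4.6 to 4.74)) and at 149629 and 128160.0 with M9, so the low sample was TRP1low with K8. Gzma, granzyme A (chromosome 13, 113093825 to 113100981), stood at 82.8 normalized counts in TRP1high and 876 in TRP1low (10.6-fold lower (8.4 to 13.4)), and both M9 samples held under 10 normalized counts. Prf1, the pore-forming perforin, stood at 461 normalized counts in TRP1high and 436 in TRP1low, a ratio of 1.06-fold higher (0.914 to 1.22) whose counting interval includes 1, and at 5066 and 3007 with M9. The death ligand Fasl stood at 236 normalized counts in TRP1high and 48.4 in TRP1low (4.87-fold higher (3.44 to 7.23)). Crtam, an adhesion receptor of cytotoxic cells, was 2.58-fold lower (2.41 to 2.75).

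**Figure D4:**
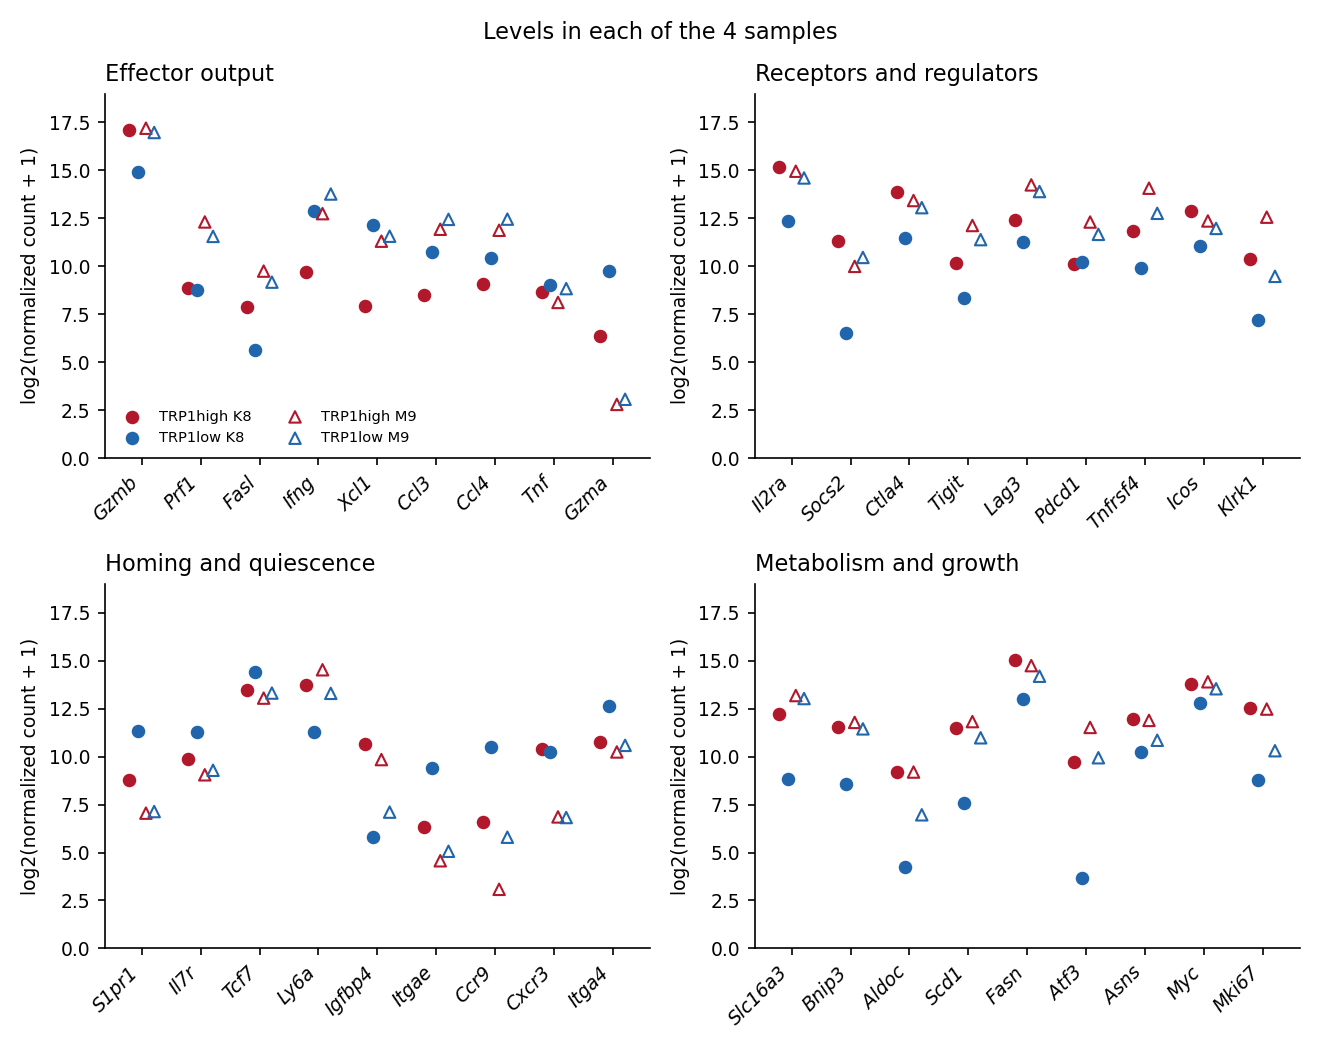
Levels of 36 genes in 4 panels, as log2(normalized count + 1) on the y axis, with filled circles for the K8 samples, open triangles for the M9 samples, red for TRP1high and blue for TRP1low. For Gzmb, Il2ra and Slc16a3 the TRP1low K8 sample lies below the other 3, for Ifng, Ccl3 and Ccl4 the TRP1high K8 sample does, and for S1pr1, Itgae and Ccr9 the TRP1low K8 sample lies above the other 3.

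Several costimulatory receptors stood higher in TRP1high. Of 19 members of the activation and costimulatory receptor list, 5 stood at least 2-fold higher and 1 lower, with a median of 0.18. Tnfrsf4, the receptor OX40, stood at 3634 normalized counts in TRP1high and 962 in TRP1low with K8 (3.78-fold higher (3.48 to 4.1)) and at 17144 and 6923 with M9. Icos, the inducible costimulator, stood at 7631 normalized counts in TRP1high and 2108 in TRP1low (3.62-fold higher (3.43 to 3.83)), and at 5248 and 4011 with M9. Both were lowest in TRP1low with K8. The homophilic receptor Slamf1 was 3.09-fold higher (2.7 to 3.54), the adhesion receptor Cd2 2.69-fold higher (2.6 to 2.78) and Tnfrsf8, which encodes CD30, 2.76-fold higher (2.44 to 3.12). Cd226, an activating receptor that binds nectin-like ligands, was 2.62-fold lower (2.47 to 2.78).

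The list of inhibitory receptors and exhaustion-associated genes, not all of them receptors, was split. Of 14 members that reached the level, 4 stood at least 2-fold higher and 3 lower, with a median of -0.09. Ctla4, which competes with CD28 for its ligands (chromosome 1, 60887000 to 60915832), stood at 15100.5 normalized counts in TRP1high and 2865 in TRP1low with K8 (5.27-fold higher (5.04 to 5.52)) and at 10984 and 8491 with M9. Tigit stood at 1142 normalized counts in TRP1high and 323 in TRP1low (3.54-fold higher (3.07 to 4.09)), Cd200 at 1412 and 499.7 (2.83-fold higher (2.52 to 3.18)) and Lag3, a receptor for MHC class II, at 5523 and 2469 (2.24-fold higher (2.12 to 2.36)). Each of these 3 was higher in both M9 samples than in either K8 sample. Pdcd1, which encodes PD-1, stood at 1123 normalized counts in TRP1high and 1197 in TRP1low, a ratio of 1.07-fold lower (0.975 to 1.17), and at 5050.2 and 3237 with M9. Cd160 (2.44-fold lower (2.26 to 2.63)), the PD-1 ligand gene Cd274 (2.15-fold lower (1.89 to 2.44)) and Nrn1 (2.59-fold lower (2.28 to 2.96)) were the members with lower values.

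Genes that the T cell receptor induces were also split, with 9 of 32 at least 2-fold higher and 6 lower, and a median of -0.05 with K8 and 0.46 with M9. Those with higher values included 2 of the 3 NR4A nuclear receptors. Nr4a2 (chromosome 2, 57106830 to 57124003) stood at 406 normalized counts in TRP1high and 34.1 in TRP1low (11.9-fold higher (7.93 to 18.6)), and at 1453 and 106 with M9, so the receptors stood in the same order with each peptide. Nr4a3 was 3.3-fold higher (3.12 to 3.5), while Nr4a1 was 1.21-fold lower (1.13 to 1.29). The ERK phosphatase Dusp4 (5.14-fold higher (4.45 to 5.95)), its relative Dusp6 (2.8-fold higher (2.36 to 3.33)) and Spry1, an inhibitor of the same pathway (4.95-fold higher (3.6 to 6.81)), stood higher, as did Cd5, a damping receptor whose level follows the strength of receptor signalling (3.0-fold higher (2.77 to 3.26)). The transcription factors Batf3 (4.51-fold higher (3.91 to 5.21)), Fosl2 (2.36-fold higher (1.94 to 2.88)) and Irf4 (2.28-fold higher (2.21 to 2.35)) were the others, and Myc stood at 13861 normalized counts in TRP1high and 7048 in TRP1low (1.97-fold higher (1.9 to 2.03)), just under the 2-fold limit.

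Lower in TRP1high were the NF-kB feedback inhibitor Tnfaip3, the phosphatase Dusp2, Egr2, Fos, Rgs16 and Ier3. Tnfaip3, which encodes A20 (chromosome 10, 19000910 to 19015657), stood at 413 normalized counts in TRP1high and 2148 in TRP1low with K8 (5.21-fold lower (4.67 to 5.82)) and at 733 and 787 with M9, so TRP1low with K8 stood above the other 3 samples. Fos was 3.13-fold lower (2.12 to 4.77), Rgs16, a brake on G protein signalling, 2.56-fold lower (2.19 to 3.0), Dusp2 2.29-fold lower (2.16 to 2.44), Egr2 2.1-fold lower (1.77 to 2.51) and Ier3 2.03-fold lower (1.66 to 2.5). With M9 each of these 6 was within 2-fold. Of 27 members with a RefSeq promoter, 2 held the AP-1 letters TGANTCA on either strand (7.41%). The share was 4.74% of matched ranked genes, counted per gene alike, and 6.75% of all 32851 promoters, counted per promoter. None held the NR4A letters AAAGGTCA (1.01% of matched ranked genes and 1.34% of all promoters).

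Of 18 effector and lineage transcription factors, 5 stood at least 2-fold higher and 6 lower, with a median of -0.05. Tbx21, which encodes T-bet, and Eomes, its relative, stood close, at 3319.9 normalized counts in TRP1high and 3170.4 in TRP1low (1.05-fold higher (0.993 to 1.1)) and at 2156 and 2273 (1.05-fold lower (0.988 to 1.12)). Nfil3 stood at 957 normalized counts in TRP1high and 149 in TRP1low (6.42-fold higher (5.26 to 7.9)), Runx3, a factor of the cytotoxic lineage, at 2952 and 846 (3.49-fold higher (3.2 to 3.81)), and Prdm1, which encodes BLIMP-1, at 245 and 82.7 (2.96-fold higher (2.24 to 4.02)). Mxd1, a MYC antagonist, and Hopx were 3.1-fold higher (2.4 to 4.01) and 2.49-fold higher (2.2 to 2.82). The 6 lower were Bcl6, a repressor that opposes BLIMP-1 (4.16-fold lower (3.12 to 5.6)), the ligand-activated factor Ahr (3.7-fold lower (2.9 to 4.81)), Rora (3.33-fold lower (2.56 to 4.37)), the Ikaros family member Ikzf2 (2.34-fold lower (2.11 to 2.6)), Id2 (2.18-fold lower (2.0 to 2.37)) and Gata3 (2.14-fold lower (1.82 to 2.51)). Bcl6 and Rora stood under 100 normalized counts in each sample other than TRP1low with K8.

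Genes of naive and memory cells included members far apart in each direction. Of 23 members, 5 stood at least 2-fold higher and 2 lower, with a median of -0.07. Igfbp4, an insulin-like growth factor binding protein gene (chromosome 11, 99041244 to 99054392), stood at 1589 normalized counts in TRP1high and 55.1 in TRP1low with K8 (28.8-fold higher (21.2 to 40.8)) and at 917 and 137 with M9. The surface antigens Ly6a (5.56-fold higher (5.29 to 5.84)) and Ly6c2 (4.58-fold higher (3.89 to 5.43)) and the genes Dapl1 (4.01-fold higher (3.57 to 4.51)) and Foxp1 (3.9-fold higher (3.64 to 4.18)) stood higher with K8, and each also stood higher with M9. S1pr1, the receptor that lets T cells leave lymph nodes (chromosome 3, 115710433 to 115715072), stood at 430.2 normalized counts in TRP1high and 2609.6 in TRP1low with K8 (6.07-fold lower (5.46 to 6.75)) and at 132 and 139 with M9. Il7r, the interleukin 7 receptor, stood at 952 normalized counts in TRP1high and 2484 in TRP1low (2.61-fold lower (2.41 to 2.82)), and at 529 and 623 with M9. Both were highest in TRP1low with K8, as was Tcf7, a transcription factor of memory and stem-like T cells, at 11505 normalized counts in TRP1high and 21472 in TRP1low (1.87-fold lower (1.82 to 1.91)).

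Receptors for homing and adhesion stood mostly higher in TRP1low. Of 21 members, 8 were at least 2-fold lower in TRP1high and 1 higher, with a median of -0.46 with K8 and -0.13 with M9. At a minimum of 10 or of 50 normalized counts the median with K8 was -0.71. Ccr9, the gut-homing chemokine receptor (chromosome 9, 123678439 to 123784330), stood at 96.5 normalized counts in TRP1high and 1448 in TRP1low with K8 (15-fold lower (12.1 to 18.6)) and at 7.47 and 54.6 with M9. Itgae, the integrin chain CD103 (chromosome 11, 73090583 to 73147446), stood at 78.9 normalized counts in TRP1high and 688 in TRP1low (8.71-fold lower (6.87 to 11.2)), and at 22.7 and 32.5 with M9. TRP1low with K8 was the only sample above 100 normalized counts for these 2 genes and for Ccr8, which stood at 3.99 normalized counts in TRP1high and 139.5 in TRP1low (34.9-fold lower (13.2 to 131)). The integrin alpha 4 chain Itga4 was 3.67-fold lower (3.47 to 3.88), the oxysterol receptor Gpr183 3.66-fold lower (3.15 to 4.27), Cxcr4 3.08-fold lower (2.74 to 3.48), Cxcr6 3.04-fold lower (2.52 to 3.68) and Cxcr5 2.61-fold lower (2.38 to 2.86). Itgav, the integrin alpha V chain, was the member with a higher value (2.55-fold higher (2.25 to 2.92)).

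The interleukin 2 receptor alpha chain and several inhibitors and partners of cytokine receptors stood higher in TRP1high. Of 30 members, all of which reached the level, 10 stood at least 2-fold higher and 2 lower, with a median of 0.46 with K8 and 0.10 with M9. Il2ra, also known as CD25 (chromosome 2, 11642807 to 11693193), stood at 36584 normalized counts in TRP1high and 5216 in TRP1low with K8 (7.01-fold higher (6.78 to 7.25)) and at 31658 and 24817 with M9. Socs2 (chromosome 10, 95385362 to 95417180) stood at 2524 normalized counts in TRP1high and 90 in TRP1low with K8 (28-fold higher (21.9 to 36.2)) and at 1018 and 1406 with M9. For both genes the outlying sample was TRP1low with K8. Cish, a STAT5 target that damps receptor signalling, was 3.79-fold higher (3.53 to 4.07), and the kinase Pim1 3.76-fold higher (3.56 to 3.98). Both interleukin 12 receptor chains stood higher, Il12rb2 at 9004 normalized counts in TRP1high and 1886 in TRP1low (4.77-fold higher (4.51 to 5.05)) and Il12rb1 at 4795 and 1752 (2.74-fold higher (2.57 to 2.91)). Il6ra (2.94-fold higher (2.17 to 3.98)) and the cytokine Osm (2.92-fold higher (2.47 to 3.47)) stood higher too, and Il6st, the shared signalling chain of that family, lower, at 1707 normalized counts in TRP1high and 5545 in TRP1low (3.25-fold lower (3.07 to 3.44)). Il1rl1, the interleukin 33 receptor, was 4.12-fold lower (2.64 to 6.42). Of 23 members with a RefSeq promoter, 3 held the STAT letters TTCNNNGAA (13.0%), namely Il12rb2, Il18r1 and Socs3. The share was 7.27% of matched ranked genes and 7.02% of all promoters.

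Components of the T cell receptor and its near signalling stood close. Of 27 members, 1 was at least 2-fold higher and none was lower, with a median of 0.12. Of the killer lectin-like and NK receptors only 3 of 18 listed genes reached 100 normalized counts. Klrk1, the activating receptor NKG2D (chromosome 6, 129610323 to 129623864), stood at 1349 normalized counts in TRP1high and 148 in TRP1low with K8 (9.11-fold higher (7.5 to 11.2)) and at 6021 and 709.6 with M9. Kit, a growth factor receptor, stood at 58.4 normalized counts in TRP1high and 987 in TRP1low (16.9-fold lower (12.9 to 22.3)), and at 37.8 and 11.8 with M9.

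Genes of glycolysis and of the response to low oxygen stood higher in TRP1high with K8. Of 32 members, 10 were at least 2-fold higher and none was lower, 28 lay above 0, and the median was 0.79 with K8 and 0.24 with M9. Aldoc, an aldolase (chromosome 11, 78322968 to 78327781), stood at 579 normalized counts in TRP1high and 17.9 in TRP1low with K8 (32.4-fold higher (18.9 to 61.5)) and at 584 and 124 with M9. Slc16a3, the lactate exporter MCT4 (chromosome 11, 120948480 to 120960868), stood at 4802 normalized counts in TRP1high and 461 in TRP1low (10.4-fold higher (9.33 to 11.7)), and at 9271 and 8322 with M9. Bnip3, a mitochondrial protein of the hypoxia response (chromosome 7, 138890836 to 138909519), stood at 3008 normalized counts in TRP1high and 379 in TRP1low (7.93-fold higher (7.02 to 9.01)), and at 3515 and 2782 with M9. All 3 genes were lowest in TRP1low with K8. Egln3, an oxygen-sensing hydroxylase, was 2.94-fold higher (2.72 to 3.17), Vegfa 2.92-fold higher (2.37 to 3.61), Ndrg1 2.88-fold higher (2.48 to 3.36), Eno1 2.66-fold higher (2.63 to 2.69) and the glucose transporter Slc2a1 2.41-fold higher (2.29 to 2.53). Reads of Eno1 could have been split with its copy Eno1b, which was far lower in TRP1high as given above, and the interval does not cover this.

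The core letters of the hypoxia response element, ACGTG on either strand, lay in the RefSeq promoters of 17 of 28 matched members (60.7%). The share was 26.2% of matched ranked genes, counted per gene alike, and 16.6% of all 32851 promoters, counted per promoter. Matched members with the letters included Ldha and Ankrd37, which stood close with K8. Whether the letters go with the difference was not tested. The windows searched, here and for the other motifs, are the 250 bases before the transcript start. For 3 of the genes with higher values, the 250 bases before the start (RefSeq, GRCm38.p6) are shown 5′ to 3′ on the gene's strand, with each match in capitals, where CACGT is the same letters read from the other strand. They show that the letters occur at different distances and numbers in genes of 1 list.
Slc16a3 (chr11:120948817-120949066, plus strand): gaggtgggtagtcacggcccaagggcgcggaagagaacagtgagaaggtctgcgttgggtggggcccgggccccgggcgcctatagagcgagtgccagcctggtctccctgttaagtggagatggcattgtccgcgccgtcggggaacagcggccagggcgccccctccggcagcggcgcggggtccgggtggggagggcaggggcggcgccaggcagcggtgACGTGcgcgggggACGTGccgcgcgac
Bnip3 (chr7:138909507-138909756, minus strand): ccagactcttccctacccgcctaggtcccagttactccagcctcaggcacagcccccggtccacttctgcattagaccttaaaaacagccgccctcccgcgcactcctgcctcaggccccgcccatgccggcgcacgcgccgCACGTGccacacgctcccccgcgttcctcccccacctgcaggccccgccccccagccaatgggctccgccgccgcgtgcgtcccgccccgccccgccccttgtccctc
Egln3 (chr12:54203875-54204124, minus strand): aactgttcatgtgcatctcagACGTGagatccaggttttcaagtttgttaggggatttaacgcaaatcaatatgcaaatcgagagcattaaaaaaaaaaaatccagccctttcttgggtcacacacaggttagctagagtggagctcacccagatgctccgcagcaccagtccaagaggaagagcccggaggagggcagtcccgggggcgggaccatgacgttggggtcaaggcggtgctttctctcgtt
A match describes the sequence and is no evidence of binding.

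Cholesterol and fatty acid synthesis genes stood higher as widely. Of 33 members, 10 were at least 2-fold higher and none was lower, 30 lay above 0, and the median was 0.77 with K8 and 0.15 with M9. Scd1, a desaturase that makes monounsaturated fatty acids (chromosome 19, 44394455 to 44407879), stood at 2896 normalized counts in TRP1high and 191 in TRP1low with K8 (15.1-fold higher (12.8 to 18)) and at 3616 and 2016 with M9. Its relative Scd2 stood at 43736 normalized counts in TRP1high and 14182 in TRP1low (3.08-fold higher (3.02 to 3.15)), and Fasn, fatty acid synthase, at 32991 and 8106 (4.07-fold higher (3.96 to 4.18)). TRP1low with K8 was the lowest sample for each. Fasn has a transcript of 10050.0 bases with 57.9% GC, and its log2 difference of 2.02 became 0.84 after the length and GC centring. The desaturase Fads2 (4.56-fold higher (4.05 to 5.16)), the mevalonate pathway enzymes Mvd (3.01-fold higher (2.75 to 3.31)) and Fdps (2.28-fold higher (2.19 to 2.37)), and the sterol sensor partner Insig1 (2.23-fold higher (2.11 to 2.37)) were other members with higher values. The sterol response letters TCACNCCAC lay in a promoter of 1 of 23 matched members, Hmgcs1. The share was 1.24% of matched ranked genes and 1.05% of all promoters.

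Genes of the integrated stress response and amino acid transport stood higher in part. Of 27 members, 11 were at least 2-fold higher and none was lower, with a median of 0.55 with K8 and 0.24 with M9. At a minimum of 10 normalized counts, or with none, the median with K8 was 0.94. Atf3 had the largest difference in the list, and stood at 2929.9 and 979.9 normalized counts with M9, so it was lowest in TRP1low with K8. The transcription factor Cebpb stood at 471 normalized counts in TRP1high and 68.4 in TRP1low (6.89-fold higher (5.14 to 9.41)), the pseudokinase Trib3 at 869 and 179 (4.85-fold higher (4.03 to 5.87)) and Asns, asparagine synthetase, at 3915 and 1200.5 (3.26-fold higher (3.03 to 3.51)). The transporters Slc7a3 (3.6-fold higher (2.85 to 4.55)) and Slc6a9 (2.63-fold higher (1.95 to 3.58)), the glutathione-degrading enzyme Chac1 (3.09-fold higher (2.21 to 4.39)) and Sesn2 (2.48-fold higher (2.17 to 2.84)) were the others named. The amino acid response letters TGATGNAAT lay in promoters of 2 of 21 matched members, Aars and Gars. The share was 0.385% of matched ranked genes and 0.816% of all promoters. Neighbouring pathways moved less: 1 of 13 serine and one-carbon enzymes and 1 of 19 unfolded protein response genes (Xbp1, 2.82-fold higher (2.67 to 2.98)) were at least 2-fold higher, and none was lower in either list.

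Interferon-stimulated genes were split with K8. With K8, 9 of 21 members stood at least 2-fold higher and 4 lower, with a median of 0.16. Of the same 21 members, 14 were at least 2-fold higher with M9 and none was lower, with a median of 1.76, beside 5.35% higher and 2.75% lower over all genes ranked with M9. Cmpk2, a nucleotide kinase (chromosome 12, 26469204 to 26479837), stood at 212 normalized counts in TRP1high and 35.3 in TRP1low with K8 (6.02-fold higher (3.97 to 9.36)) and at 771 and 40.8 with M9. Ifit1, which binds viral RNA, was 4.76-fold higher (2.92 to 8.18), the ISG15 protease Usp18 3.75-fold higher (2.7 to 5.38), Ifi27l2a 3.52-fold higher (3.05 to 4.08), the RNA-sensing synthetase Oas3 3.33-fold higher (2.85 to 3.92), Zbp1 3.32-fold higher (2.98 to 3.71) and Stat2 2.93-fold higher (2.46 to 3.52). The 4 with lower values were Rtp4 (3.64-fold lower (2.58 to 5.17)), the RNA sensors Ifih1 (2.57-fold lower (2.13 to 3.09)) and Ddx58 (2.18-fold lower (1.92 to 2.49)), which encode MDA5 and RIG-I, and Irf7, a transcription factor that amplifies interferon genes (2.98-fold lower (2.32 to 3.87)). All 4 were higher in TRP1high with M9, at 4.28-fold higher, 1.82-fold higher, 2.31-fold higher and 7.19-fold higher.

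Among 16 guanylate binding proteins and immunity GTPases, 5 were at least 2-fold higher and none was lower, with a median of 0.27. The list does not hold Gbp2b, the guanylate binding protein gene given above, which was 61.7-fold lower (43.7 to 89.9). Gvin1, a very large interferon-inducible GTPase (chromosome 7, 106156556 to 106215326), stood at 5032 normalized counts in TRP1high and 259 in TRP1low with K8 (19.4-fold higher (16.8 to 22.6)) and at 4503 and 1258 with M9. Iigp1 was 4.37-fold higher (4.03 to 4.75), Gbp7 2.99-fold higher (2.72 to 3.3), Gbp5 2.56-fold higher (2.4 to 2.72) and Gbp2 2.01-fold higher (1.95 to 2.07). Members of this family resemble each other closely, so reads could have been shared among copies. The interferon response letters GAAANNGAA on either strand lay in the promoters of 9 of 9 matched members and of 7 of 15 matched interferon-stimulated genes. The share was 7.63% of matched ranked genes and 7.13% of all promoters. Matched members with the letters included Gbp3 and Irgm2, which stood lower in TRP1high with K8 by less than 2-fold. Whether these letters go with the difference was not tested. For 2 members with higher values, the 250 bases before the start (RefSeq, GRCm38.p6) are shown 5′ to 3′ on the gene's strand with the match in capitals; both are read here from the other strand. Both genes lie on chromosome 3. Apart from the N positions, the matched letters are set by the pattern searched, so their likeness is no finding.
Gbp5 (chr3:142496684-142496933, plus strand): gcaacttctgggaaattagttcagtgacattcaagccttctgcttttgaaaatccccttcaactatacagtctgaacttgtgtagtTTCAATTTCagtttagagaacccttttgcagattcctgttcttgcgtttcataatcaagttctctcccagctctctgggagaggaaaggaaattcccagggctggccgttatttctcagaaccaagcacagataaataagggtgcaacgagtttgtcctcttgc
Gbp7 (chr3:142530086-142530335, plus strand): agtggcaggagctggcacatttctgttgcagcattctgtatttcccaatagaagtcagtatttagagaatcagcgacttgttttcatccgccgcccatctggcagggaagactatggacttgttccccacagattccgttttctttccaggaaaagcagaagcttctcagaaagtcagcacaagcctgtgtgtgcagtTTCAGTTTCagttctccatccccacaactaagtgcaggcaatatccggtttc
Of 18 MHC class I presentation genes, 1 was at least 2-fold higher, their activator Nlrc5 (2.68-fold higher (2.49 to 2.89)), and none was lower.

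Most cell cycle genes stood close. Of 29 mitosis genes, 4 were at least 2-fold higher and none was lower, with a median of 0.11. Mki67, the proliferation marker Ki-67 (chromosome 7, 135689784 to 135716361), stood at 5967 normalized counts in TRP1high and 435 in TRP1low with K8 (13.7-fold higher (12.3 to 15.4)) and at 5686 and 1263 with M9. The centromere proteins Cenpf (23.3-fold higher (17.4 to 31.4)) and Cenpe (18.1-fold higher (14.4 to 22.7)) and topoisomerase gene Top2a (2.65-fold higher (2.58 to 2.73)) were the other 3. Their transcripts run from 5221 bases (Top2a) to 11130.0 bases (Cenpf), and their log2 differences after the length and GC centring were 4.49 for Cenpf, 4.26 for Cenpe, 3.46 for Mki67 and 1.68 for Top2a. Of 30 DNA replication genes, 3 were at least 2-fold higher, E2f8 (2.28-fold higher (2.09 to 2.5)), Lig1 (2.13-fold higher (2.05 to 2.22)) and Uhrf1 (2.01-fold higher (1.95 to 2.07)), and none was lower, with a median of 0.06. Of 27 MYC and ribosome biogenesis genes, 5 were higher and none was lower, with a median of 0.19. The nucleolar proteins Nolc1 and Ncl stood at 15711 normalized counts in TRP1high and 2890.1 in TRP1low (5.44-fold higher (5.19 to 5.69)) and at 131822 and 46859.5 (2.81-fold higher (2.78 to 2.85)), and the RNA polymerase I subunit Polr1a (2.46-fold higher (2.34 to 2.59)), Mybbp1a (2.39-fold higher (2.34 to 2.45)) and Utp20 (2.04-fold higher (1.95 to 2.14)) were the others.

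Housekeeping machinery differed little. None of 25 nuclear respiratory chain genes, 13 mitochondrially encoded genes, 32 cytosolic ribosomal protein genes and 11 heat shock genes was 2-fold apart in either direction with K8. Their medians were -0.09, -0.35, -0.01 and -0.33. Mitochondrially encoded genes took 6.08% of the estimated reads of TRP1high and 7.34% of those of TRP1low with K8, and 4.33% and 7.47% with M9.

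Survival genes of the BCL2 family were split between the samples. Of 25 p53 targets and BCL2 family members, 1 was at least 2-fold higher and 6 were lower, with a median of -0.22. Bcl2, the founding antiapoptotic member (chromosome 1, 106538178 to 106714274), stood at 5294 normalized counts in TRP1high and 678 in TRP1low with K8 (7.81-fold higher (7.13 to 8.59)) and at 5228 and 2926 with M9. The death-promoting members Bcl2l11, which encodes BIM (3.09-fold lower (2.89 to 3.31)), and Bmf (5.06-fold lower (3.37 to 7.57)) were lower in TRP1high. The antiapoptotic paralogs Bcl2a1d (3.5-fold lower (3.21 to 3.83)) and Bcl2a1b (2.42-fold lower (2.25 to 2.6)) were lower as well, and share much of their sequence, so their reads could have been split. The stress genes Gadd45b (2.81-fold lower (2.58 to 3.05)) and Sesn1 (2.53-fold lower (2.35 to 2.72)) were the other 2.

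Of 14 members of the transforming growth factor beta response and residency list, Rgs1 was 5.35-fold higher (4.51 to 6.36), and Itgae and Ldlrad4, an inhibitor of that pathway (13.9-fold lower (6.99 to 31.3)), were lower, with a median of -0.24. Cytoskeleton genes had members far apart in each direction, with 8 of 21 at least 2-fold higher and 4 lower and a median of 0.70. Myh9, the nonmuscle myosin heavy chain (chromosome 15, 77760587 to 77842175), stood at 16945 normalized counts in TRP1high and 985 in TRP1low with K8 (17.2-fold higher (16 to 18.6)) and at 16442 and 2519 with M9. The calcium-binding Anxa2 (5.13-fold higher (4.59 to 5.73)) and S100a6 (3.99-fold higher (3.01 to 5.33)), talin, Tln1 (4.13-fold higher (3.91 to 4.35)), vimentin, Vim (3.63-fold higher (3.52 to 3.75)), beta actin, Actb (3.53-fold higher (3.5 to 3.56)), the galectin Lgals1 (2.17-fold higher (2.09 to 2.25)) and Crip1 (2.17-fold higher (2.03 to 2.33)) stood higher. Lgals3, another galectin (chromosome 14, 47367751 to 47386160), stood at 48.5 normalized counts in TRP1high and 1059 in TRP1low with K8 (21.9-fold lower (16.2 to 29.5)) and at 132 and 12.5 with M9, where the receptors stood in the opposite order. Emp1 (2.25-fold lower (1.74 to 2.95)), the tubulin Tubb6 (2.23-fold lower (1.99 to 2.51)) and the lamin gene Lmna (2.09-fold lower (1.57 to 2.82)) were lower with K8.

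The K8 and M9 pairs share no sample, so the receptor difference could be set side by side in both. Across 9531 genes ranked in both, which are not independent, the differences had correlations of 0.59 (Spearman) and 0.58 (Pearson), and of 0.53 (Spearman) across 9449 genes after the length and GC centring. At least 2-fold higher in both were 274 genes, 30.4% of those higher with K8 and 52.6% of those higher with M9. At least 2-fold lower in both were 107 genes, 20.3% and 39.9% of the lists. Over all ranked genes, 9.21% were higher and 5.39% lower with K8, and 5.35% were higher and 2.75% lower with M9. In opposite directions were 36 genes, 14 of them higher with K8 and 22 lower with K8. Klrk1, Nr4a2, Myh9 and Igfbp4 differed in the same direction by at least 2-fold with each peptide. Il2ra (log2 2.81 with K8 and 0.35 with M9), Socs2 (4.79 and -0.47), S1pr1 (-2.60 and -0.08) and Xcl1 (-4.26 and -0.26) were far apart with K8 and within 2-fold with M9. With 1 sample for each combination, the difference between the pairs could not be tested.

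**Figure D5:**
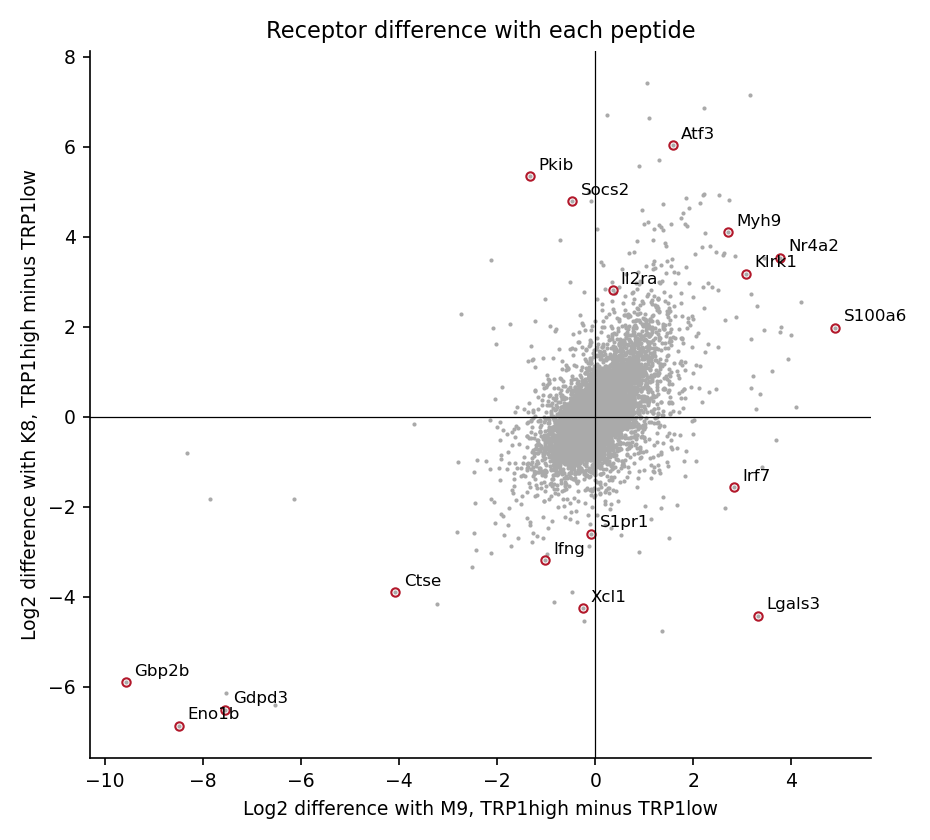
Each point is 1 of the 9531 genes ranked in both pairs, placed by its log2 difference with M9 (x axis) and with K8 (y axis), TRP1high minus TRP1low. Most points run from lower left to upper right, Eno1b, Gbp2b, Gdpd3 and Ctse lie low on both axes, Il2ra, Socs2, S1pr1 and Xcl1 lie near 0 on the M9 axis, and Lgals3, Irf7 and Pkib lie in the quadrants of opposite direction.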

How the data were processed

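RNA sequencing of 4 samples, 1 per combination of receptor and peptide, gave 1 deposited log2 normalized count per gene and sample, per the file headers. Per the submitters' processing notes, Salmon 0.8.2, DESeq2 1.20.0 and the build mm10 were used by the authors; the sources used here do not give their settings, the annotation or whether strand was used. The smallest steps of the low values gave 0.998, 1.37, 0.990 and 1.05 normalized counts per read in TRP1high with K8, TRP1low with K8, TRP1high with M9 and TRP1low with M9, and levels were divided by them to estimate reads. Between 56.0% and 56.5% of values under 50 lay within 0.01 of a whole read, so no count model was fitted across genes. The intervals of folds are exact conditional binomial intervals on estimated reads rounded to whole numbers. They do not cover the error of estimating those reads. Intervals and the floor of 3 reads cover counting error only.

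Symbols were matched to GENCODE M21 (16196) or RefSeq (100), and 42 were not matched. Differences were taken with Python 3.11.15, numpy 2.4.6, pandas 2.3.3 and scipy 1.17.1, with no test, since each group is 1 sample; the difference and interval calculations were tested on simulated data. Genes were named as the 15 highest and 15 lowest protein-coding genes at a minimum of 100 and of 2000 normalized counts, up to 8 list members at least 2-fold apart in each direction, and 17 T cell genes whatever their difference; some of these genes are not reported here. Members and lists were chosen with earlier results of these data known. Motifs were searched in the 250 bases before each RefSeq start; the 50 bases after it, part of the window first planned, were left out because they are transcribed. Alternatives covered the minimum level, the added count, the scaling, gene types, and transcript length and GC content.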

Additional observations from a re-analysis of the deposited data

Results flagged for a closer look

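For 4 of the 217 named genes, the receptors stood at least 2-fold apart in opposite directions with K8 and with M9. The difference between the peptides was not tested, as 1 sample stands for each combination. Ddx58 had a log2 difference (TRP1high minus TRP1low) of -1.12 with K8 and 1.2 with M9. Irf7 had -1.57 with K8 and 2.83 with M9. Lgals3 had -4.42 and 3.31, and Pkib had 5.35 and -1.33. Ddx58 and Lgals3 were highest of the 4 samples in TRP1low with K8, and Irf7 was highest in TRP1high with M9, at 512 against 272 normalized counts in TRP1low with K8.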

How the results depend on the processing

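The counts of genes at least 2-fold higher (902) and lower (528) depended most on the minimum level. They were 1508 and 1031 at a minimum of 10 normalized counts, 1058 and 652 at 50, 613 and 268 at 500, and 2203 and 1360 with no minimum. Under the other 8 settings (added counts of 10 and 0.1, median, total and upper quartile scaling, the read floor, named protein-coding genes only, and length and GC centring, the last chosen after seeing the data), they lay between 771 and 964 (higher) and between 490 and 562 (lower). Higher genes made 59.4% to 69.6% of those called. Of 206 named genes at least 2-fold apart, none changed direction under the 7 settings tried on single genes. Except for the length and GC centring, this was fixed in advance and is no sign of robustness. An added count cannot reverse the order of 2 values. The scalings moved log2 differences by at most 0.04, and the read floor lies far under 100 normalized counts. Below 2-fold were 17 after length and GC centring, 4 with equal upper quartiles (Gbp2, H2-Ab1, Uhrf1, Utp20), 3 with an added count of 10 (H2-Ab1, Ier3, Lmna) and 1 with median centring (Ier3). The median of the effector cytokines moved to -0.39 at a minimum of 500. No sample has a replicate, so none could be left out. No paired analysis was possible because each group holds 1 sample and no test was run. TRP1low with K8 was the shallowest sample, which limits genes near its floor of 3 reads (4.10 normalized counts).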

Other observations

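Receptor constant genes were set aside from the ranking, and their values are given here. The gamma chain constant genes Tcrg-C1, Tcrg-C2 and Tcrg-C4 stood at 908, 512 and 1446 normalized counts in TRP1high with K8 and at 9.57, 15 and 4.1 in TRP1low with K8. With M9 they stood at 105, 65.3 and 227 in TRP1high and at 2.1, 3.15 and 2.1 in TRP1low, so they were higher in TRP1high with each peptide and highest with K8. The delta chain constant gene Trdc stood the other way, at 676 and 1179 with K8 and 464 and 795 with M9. The beta chain constant gene Trbc1 stood at 2009 in TRP1high and 31669 in TRP1low with K8, and Trbc2 at 21907 and 18379.5. These gene segments resemble each other, so reads could have been shared among them in counting.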
